A study of Homo sapiens with 6 samples.

Results

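The genes described here are those of the hypoxia response and the HIF pathway: the oxygen sensors, the transcription factors they control, and genes known to be induced when oxygen is low. They were taken from a list of 32 genes, and 29 of them had a probe set annotated to that gene alone, of 18417 genes measured this way. Each of the 29 had 1 such probe set, so no choice between probe sets was needed. CA9, EGLN2 and FUT11 had none and were not analysed here. The list was chosen with earlier results of these data known, so its shares below are descriptions only.

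HIF is a transcription factor made of an oxygen-regulated alpha subunit, encoded by HIF1A or EPAS1, and a constant partner encoded by ARNT. When oxygen is present, prolyl hydroxylases (EGLN1, EGLN2 and EGLN3) mark the alpha subunit, the VHL protein binds the mark and has the subunit degraded, and a further hydroxylase encoded by HIF1AN blocks its recruitment of coactivators. When oxygen is low the alpha subunit escapes, and the factor switches on genes for glucose uptake, acid export, collagen processing, mitophagy and blood vessel growth. Since this control acts largely on the protein, the level of HIF1A mRNA is not a measure of HIF activity.

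The cells were MDA-MB231, an established metastatic breast cancer line of mesenchymal, basal-like character. The control was the parental line with no treatment (3 arrays), and the other group was 1 clone of that line with a stable knockdown of G9a (3 arrays), the histone methyltransferase encoded by EHMT2; the labels call the clone's cells less metastatic. All cells were harvested in logarithmic growth in serum-containing medium, and the labels name no low-oxygen treatment for either group, so the genes were read in ordinary culture. As the knockdown is 1 clone set against the parental line, clone and knockdown cannot be told apart. The labels do not say whether replicates were separate cultures; if they were not, the p-values rest on a spread that is technical. In bulk RNA of this kind, fewer cells expressing a gene and less RNA per cell cannot be told apart.

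Values are log2 intensities, and differences are knockdown minus control with a standard error (SE) from limma, n = 3 arrays per group. A gene was called changed at a Benjamini-Hochberg adjusted p of 0.05 over all 18417 genes. EHMT2 read 10.21, 10.27 and 9.93 in control and 9.66, 9.59 and 9.51 in the knockdown, a fall of 0.55 on the log2 scale (limma, adjusted p = 0.0259), and the groups did not overlap. That call was lost when any array other than control replicate 3 was left out, with adjusted p from 0.0716 to 0.122. Of 7 genes typical of mesenchymal basal-like breast cancer cells, 6 were in the highest 33.3% of gene means, and of 5 genes that such cells should lack or express little, ESR1, PGR and CDH1 were in the lowest 33.3%, EPCAM in the middle and ERBB2 in the highest. CDH1, encoding E-cadherin, rose by 0.45 in the knockdown (limma, adjusted p = 0.0177). S100A4, of the mesenchymal list, rose as well, by 0.49 (limma, adjusted p = 0.00977). No other gene of the mesenchymal list or of the list that should be low was called. Of 12 leukocyte, endothelial and fibroblast markers measured, 7 were in the lowest 33.3% and none in the highest. The mean over the 4 endothelial genes was 7.39 to 7.48 on the knockdown arrays and 7.02 to 7.26 in control. CDH5, encoding VE-cadherin, rose by 0.71 (limma, adjusted p = 0.0210). PECAM1 was at 0.42 with groups that did not overlap, but did not pass (limma, adjusted p = 0.0591). VWF and TEK were at 0.07 and -0.00095. The 4 leukocyte genes had means of 6.12 to 6.17 against 5.99 to 6.08, and the fibroblast genes of 6.80 to 6.83 against 6.65 to 6.87. The mesenchymal list lay at 12.87 to 12.92 against 12.82 to 12.85, and the list of genes that should be low at 7.72 to 7.78 against 7.56 to 7.61. The part of these markers in the results below was not tested.

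To show what the array results can be set against, the RefSeq promoters of 5 members are printed here, read from the 250 bases before the annotated start (GRCh38.p14). P4HA2 and TMEM45A are shown because they had the smallest p-values among members with a promoter entry. P4HA1, PLOD2 and BNIP3 were chosen after their values were seen, from members whose groups did not overlap and whose windows hold the core sequence of the HIF binding site. Other members met both conditions and are not printed: ANGPTL4 and BHLHE41, which were higher in the knockdown, and BHLHE40, WSB1, ERO1A and EGLN1, which were lower. All 5 printed genes were lower, so the print does not show how the sequence goes with direction. Sequences run 5′ to 3′ on the strand of the gene, with ACGTG on either strand (CACGT when read from the opposite strand) in capitals; the palindrome CACGTG is a match on both strands.
P4HA2 (chr5:132227092-132227341, minus strand): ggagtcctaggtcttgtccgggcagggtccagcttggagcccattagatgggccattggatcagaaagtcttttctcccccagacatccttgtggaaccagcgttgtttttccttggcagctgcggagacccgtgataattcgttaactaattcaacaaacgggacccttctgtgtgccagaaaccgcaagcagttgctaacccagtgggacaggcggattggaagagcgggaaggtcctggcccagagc
P4HA1 (chr10:73096867-73097116, minus strand): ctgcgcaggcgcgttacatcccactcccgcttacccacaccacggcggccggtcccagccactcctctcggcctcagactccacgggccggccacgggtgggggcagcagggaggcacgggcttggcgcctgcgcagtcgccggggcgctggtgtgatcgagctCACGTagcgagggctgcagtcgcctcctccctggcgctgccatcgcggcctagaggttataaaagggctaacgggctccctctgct
PLOD2 (chr3:146161185-146161434, minus strand): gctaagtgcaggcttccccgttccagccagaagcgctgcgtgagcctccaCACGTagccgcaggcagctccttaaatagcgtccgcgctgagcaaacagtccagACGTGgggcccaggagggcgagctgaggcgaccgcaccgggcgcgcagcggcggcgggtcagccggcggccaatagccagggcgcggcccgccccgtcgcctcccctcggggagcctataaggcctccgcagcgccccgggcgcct
BNIP3 (chr10:131981924-131982173, minus strand): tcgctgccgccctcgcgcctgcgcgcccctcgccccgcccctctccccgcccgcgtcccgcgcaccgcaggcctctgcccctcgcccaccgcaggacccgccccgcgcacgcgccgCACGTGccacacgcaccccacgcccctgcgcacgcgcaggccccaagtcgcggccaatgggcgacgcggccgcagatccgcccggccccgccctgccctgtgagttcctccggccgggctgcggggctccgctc
TMEM45A (chr3:100492369-100492618, plus strand): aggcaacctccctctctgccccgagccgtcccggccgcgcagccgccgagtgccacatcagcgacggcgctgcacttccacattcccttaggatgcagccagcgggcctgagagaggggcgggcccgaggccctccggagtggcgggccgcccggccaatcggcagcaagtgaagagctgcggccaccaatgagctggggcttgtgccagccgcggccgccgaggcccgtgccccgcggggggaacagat

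P4HA1 has 1 match, which starts 86 bases before the start site. PLOD2 has 2, at 200 and 146 bases, and BNIP3 has the palindrome, at 134 bases. Neither P4HA2 nor TMEM45A has ACGTG in its window, which says only that these letters are not in this stretch. Over windows of 300 bases (250 before to 50 after the start), 13 of the 23 members with an entry held ACGTG on either strand (56.5%), as did 24.9% of 27305 genes. The 27305 are all genes with an entry, measured on the arrays or not, whereas the 23 members were all measured, so the sets are unlike. A gene with several windows was counted if any held it. By direction of the array difference, 9 of 17 members below 0 and 4 of 6 above 0 held it. Searching GCGTG, another form of the core that was added after the data were seen and whose matches can overlap those of ACGTG, found 12 of 23 members (52.2%) against 40.6% of genes. These are descriptions of letters, not of binding, and many members are on the list because HIF is known to induce them. BNIP3L, HILPDA, NDRG1, RAB20, STC1 and VHL had no promoter entry.

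**Figure D1:**
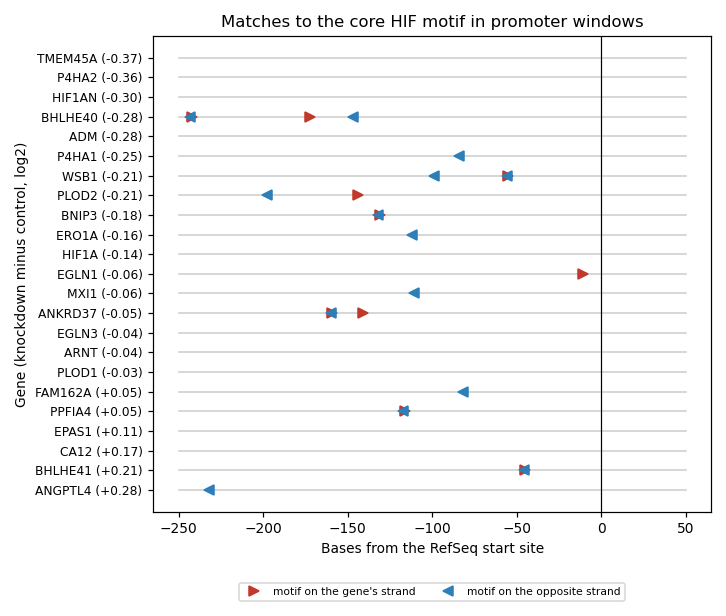
Matches to the core HIF sequence in the promoter windows of 23 members, ordered by the array difference (in brackets, log2). The x axis gives bases from the RefSeq start site; triangles pointing right are matches on the strand of the gene and triangles pointing left are matches on the opposite strand. Matches occur among members below 0 (9 of 17) and above 0 (4 of 6), and the top rows, TMEM45A and P4HA2, have none.

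Across the hypoxia genes the knockdown clone showed small differences. VHL, the recognition subunit of the ubiquitin ligase that removes HIF alpha, rose 1.31-fold, and P4HA2, a collagen prolyl hydroxylase, fell 1.28-fold; the other 27 measured members did not pass the test. The 2 calls are 6.9% of the 29 members, where 3.05% of all genes were called (1.28% higher, 1.78% lower), and among genes outside the lowest 33.3% of mean values, where all 29 members lay, 3.97% were. Neither call held when every probe set was tested (adjusted p = 0.0665 for VHL and 0.0754 for P4HA2), whereas 6 members passed with an intensity trend (5.88% of all genes called) and 10 with array weights (18.1%). Differences ran from -0.37 (TMEM45A) to 0.39 (VHL), so no member differed by 2-fold or more in either direction. The median of the 29 was -0.06, beside 0.03 for all genes and 0.02 for genes outside the lowest 33.3%, and 20 members were below 0 (69.0%, against 40.4% of all genes and 44.9% of those outside the lowest 33.3%).

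The arrays of the groups did not overlap for 15 members that were lower and 4 that were higher in the knockdown, together 65.5% of the 29. Over all genes the share was 27.0% (14.3% higher and 12.7% lower), and among genes outside the lowest 33.3% it was 33.0% (16.2% higher and 16.9% lower). At an unadjusted p of 0.05 in limma, 11 members were lower (9.23% of all genes) and 4 higher (10.1% of all genes; 19.4% for both directions together). Of the members whose groups did not overlap, the 17 that did not pass the test had differences of 0.37 or less in size. The called members, P4HA2 and VHL, were at -0.36 and 0.39. Control replicate 3 was the highest of the 6 arrays for 14 members and the lowest for 7, and its mean over the members was 0.07 above the 6-array mean, against 0.0008 and 0.03 on control replicates 1 and 2. Knockdown replicate 1 was the lowest array for 10 members, with a mean of -0.05, and knockdown replicates 2 and 3 lay at -0.02 and -0.03. The median over all genes, taken about each gene's 6-array mean, was 0.04 on knockdown replicate 1, where the members' median was -0.05. On the other arrays the median over all genes lay between -0.0093 and 0.0044. Without control replicate 3 the median of the members was -0.09.

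**Figure D2:**
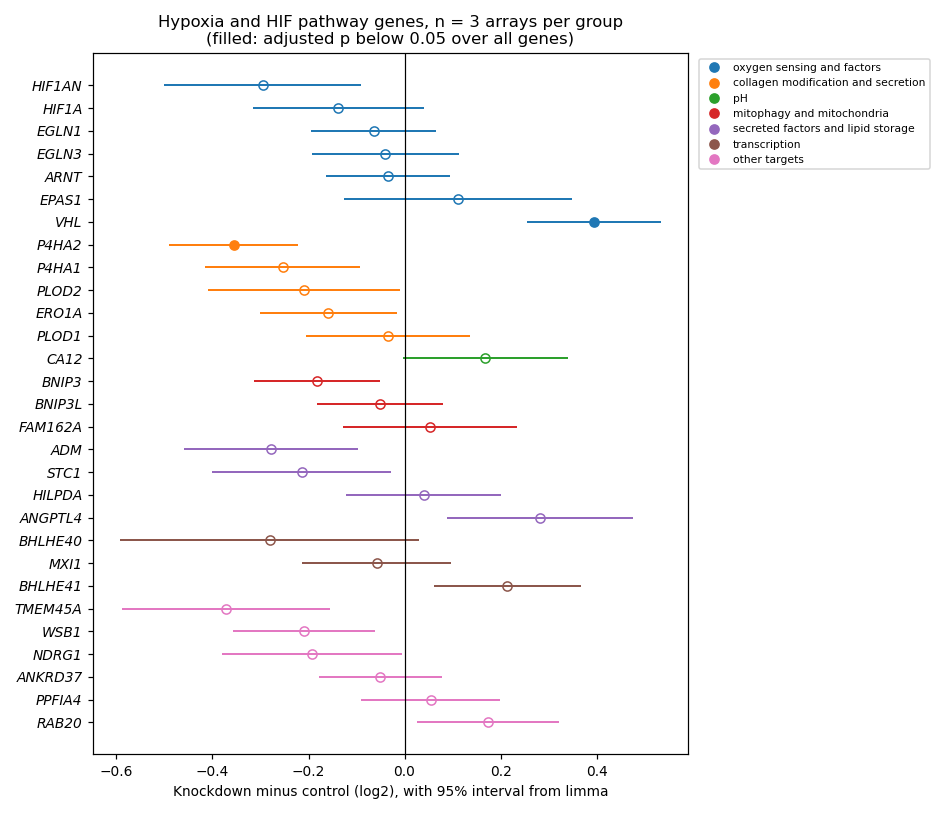
Knockdown minus control (x axis, log2) for the 29 measured members, grouped and coloured by role, with 95% intervals from limma and n = 3 arrays per group. Filled points passed an adjusted p of 0.05 over all genes; they are VHL at 0.39 and P4HA2 at -0.36, and every other point is open.

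**Figure D3:**
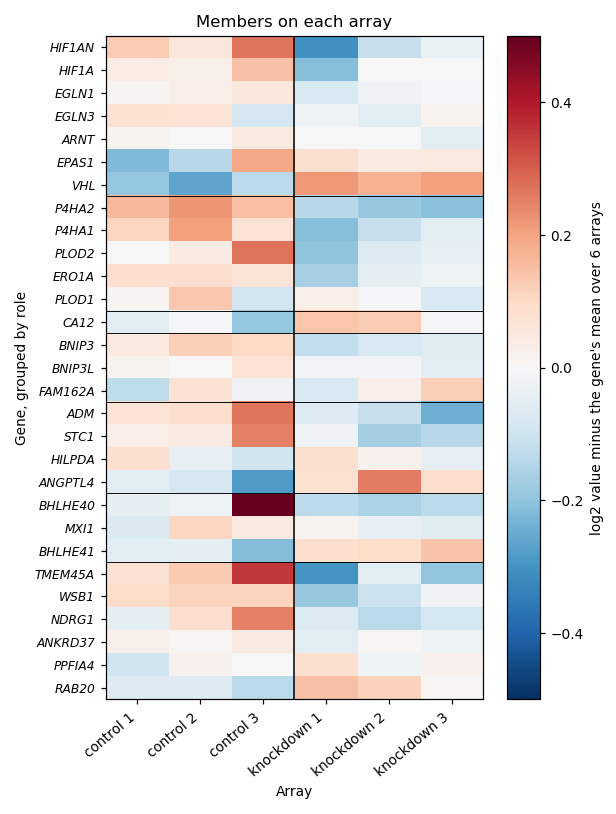
Each member (rows, grouped by role) on each array (columns), as its log2 value minus its mean over the 6 arrays. Control replicate 3 holds the highest value of 14 members and knockdown replicate 1 the lowest of 10.

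Among the genes of oxygen sensing, VHL stood apart from the rest. It read 9.32, 9.25 and 9.38 on the control arrays and 9.73, 9.69 and 9.72 on the knockdown arrays. Every knockdown array was above every control array, and the spread within a group was small, with means of 9.32 ± 0.06 and 9.71 ± 0.02 (SD, n = 3). The rise was 0.39 ± 0.06 (SE; limma, adjusted p = 0.0173; 95% interval 0.26 to 0.53). With 1 array left out it stayed between 0.36 and 0.43, and the adjusted p was 0.0199 when control replicate 3 was omitted but 0.0546 to 0.0983 in the other 5 such fits. Its neighbours in gene order on chromosome 3 lay the same way: the 10 tested genes on each side had a median of 0.15, 16 of the 20 were above 0 and none was called. The highest of them, TATDN2 and VGLL4, were at 0.40 and 0.38, close to VHL itself. Set against the neighbour median, VHL was at 0.25.

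HIF1AN, encoding the asparaginyl hydroxylase FIH, read 10.07, 10.00 and 10.21 in control and 9.64, 9.83 and 9.91 in the knockdown. The groups did not overlap, but knockdown replicate 1 was well below the others, and the difference of -0.30 ± 0.09 (SE) did not pass (limma, adjusted p = 0.120). Its 20 neighbours had a median of -0.06. EGLN1, the main HIF prolyl hydroxylase in ordinary oxygen, was at -0.06 (95% interval -0.19 to 0.07). EGLN3, a hydroxylase that is itself induced by HIF, was at -0.04 (95% interval -0.19 to 0.11), with the groups overlapping. For both hydroxylases these intervals leave out changes of 0.2 log2 or more.

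The alpha subunits did not pass either, and their values lay in opposite directions. HIF1A read 13.19, 13.18 and 13.30 in control and 12.94, 13.15 and 13.15 in the knockdown. The gap between the groups was narrow, and the difference of -0.14 ± 0.08 (SE; limma, adjusted p = 0.375) was -0.07 without knockdown replicate 1, the lowest array. EPAS1, encoding HIF2 alpha, read 11.32, 11.40 and 11.73 in control and 11.62, 11.58 and 11.59 in the knockdown. Here control replicate 3 lay above every knockdown array and the other 2 control arrays below, so the difference of 0.11 ± 0.10 (SE; limma, adjusted p = 0.601) was 0.24 without that array (adjusted p = 0.0847), and 0.03 and 0.07 without control replicates 1 and 2 (adjusted p = 0.927 and 0.833). Whether HIF1A and EPAS1 differed from each other in their response was not tested. ARNT, the constant partner, was at -0.04 (95% interval -0.16 to 0.09).

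**Figure D4:**
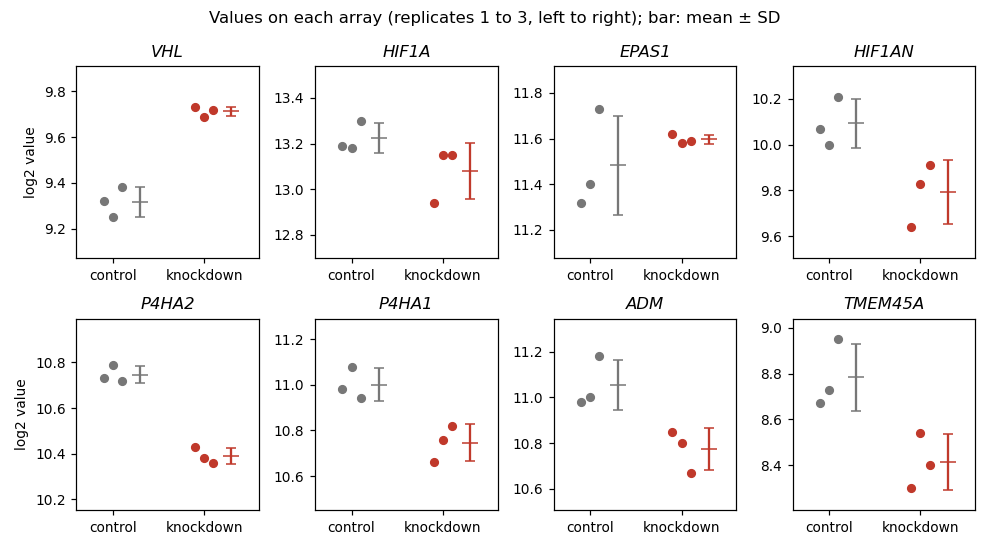
Log2 values of 8 members on each array (points, replicates 1 to 3 from left to right; grey control, red knockdown), with the group mean ± SD beside them; each panel spans the same range of log2 units. VHL and P4HA2 show tight groups that are far apart, while EPAS1 overlaps through control replicate 3 and HIF1A is spread by knockdown replicate 1.

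Among the genes of collagen modification, 1 of 5 fell and the others did not pass (1.78% of all genes fell); all 5 differences were below 0, as were 40.4% of those of all genes. P4HA1 and P4HA2 encode the catalytic subunits of collagen prolyl 4-hydroxylase, which stabilises the collagen triple helix, PLOD1 and PLOD2 encode lysyl hydroxylases that prepare collagen for crosslinking, and ERO1A encodes an oxidase that drives disulphide formation in the endoplasmic reticulum. P4HA2 read 10.73, 10.79 and 10.72 in control and 10.43, 10.38 and 10.36 in the knockdown. The groups were well apart, and the difference was -0.36 ± 0.06 (SE; limma, adjusted p = 0.0208; 95% interval -0.49 to -0.22). It ranged from -0.38 to -0.33 with 1 array left out and the adjusted p was 0.0308 when control replicate 3 was omitted, against 0.0589 to 0.112 in the other 5 such fits.

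P4HA1, whose promoter holds the motif printed above, read 10.98, 11.08 and 10.94 in control and 10.66, 10.76 and 10.82 in the knockdown. These groups did not overlap either, but lay nearer to each other, and the difference of -0.25 ± 0.07 (SE) did not pass (limma, adjusted p = 0.0963). PLOD2 was at -0.21 (12.07, 12.11 and 12.34 against 11.87, 12.00 and 12.03), and moved to -0.12 without control replicate 3. ERO1A was at -0.16, with control arrays at 12.69, 12.69 and 12.67 and knockdown arrays at 12.44, 12.56 and 12.58. PLOD1 was at -0.03, with overlapping groups, and changed sign to 0.0249 without control replicate 2.

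P4HA2 and ERO1A lay among genes that were also lower. The 20 neighbours of P4HA2 on chromosome 5 had a median of -0.11, with 14 below 0 and 4 called, and those of ERO1A on chromosome 14 a median of -0.15, with 15 below 0 and 3 called. Set against those medians, ERO1A was at -0.01 and P4HA2 at -0.24. The medians around P4HA1 and PLOD2 were -0.03 and 0.10, and set against them these genes were at -0.23 and -0.31. HIF1A, on the same chromosome as ERO1A, had a neighbour median of -0.10 beside its own -0.14. Over the 29 members, the neighbour medians ran from -0.15 to 0.17 and had the sign of the member for 20. The part of such shared shifts in the members' values was not tested.

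**Figure D5:**
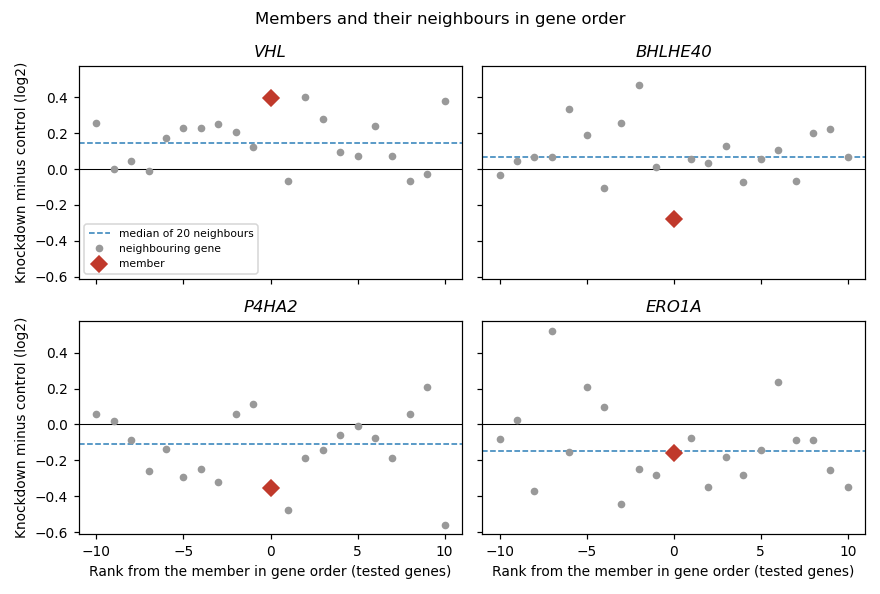
Knockdown minus control (y axis, log2) for 4 members (red diamonds) and the 10 tested genes on each side in gene order (grey points, x axis in ranks), with the median of the 20 neighbours as a dashed line. VHL and P4HA2 lie beyond medians of the same sign (0.15 and -0.11), ERO1A lies at its neighbours' median (-0.15), and BHLHE40 lies below 0 among neighbours with a median of 0.07.

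Of the genes for secreted factors and lipid storage, none passed. ADM, encoding the vasodilator peptide adrenomedullin, read 10.98, 11.00 and 11.18 in control and 10.85, 10.80 and 10.67 in the knockdown, a difference of -0.28 ± 0.08 (SE; limma, adjusted p = 0.104), and its 20 neighbours had a median of -0.14. STC1, encoding the secreted glycoprotein stanniocalcin, was at -0.21, with arrays at 11.17, 11.18 and 11.39 against 11.12, 10.97 and 11.00, and at -0.14 without control replicate 3. ANGPTL4, an inhibitor of lipoprotein lipase, lay the other way: it read 8.34, 8.31 and 8.11 in control and 8.47, 8.65 and 8.48 in the knockdown, a difference of 0.28 ± 0.08 (SE; limma, adjusted p = 0.117). The groups did not overlap for any of these genes. HILPDA, which promotes lipid droplets, was at 0.04 with overlapping groups and at -0.00099 without control replicate 3.

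The related repressors BHLHE40 and BHLHE41, both known HIF targets, had differences of opposite sign. BHLHE40 read 11.85, 11.87 and 12.40 in control and 11.77, 11.74 and 11.77 in the knockdown. Control replicate 3 set the size of this difference, which was -0.28 ± 0.14 (SE; limma, adjusted p = 0.305) with it and -0.10 without it. BHLHE41 read 10.20, 10.21 and 10.04 in control and 10.34, 10.35 and 10.40 in the knockdown, and its difference was 0.21 ± 0.07 (SE; limma, adjusted p = 0.128). Both had groups that did not overlap, and the difference between the genes was not tested. MXI1, an antagonist of MYC, was at -0.06 with overlapping groups.

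Among mitochondrial genes, BNIP3, a mitophagy receptor, read 12.49, 12.56 and 12.54 in control and 12.32, 12.36 and 12.38 in the knockdown. The arrays within each group were close, but the difference of -0.18 ± 0.06 (SE) did not pass (limma, adjusted p = 0.131); it lay among neighbours with a median of 0.09. Its paralog BNIP3L was at -0.05 (95% interval -0.18 to 0.08), and FAM162A, a mitochondrial protein gene induced by HIF, was at 0.05 among neighbours with a median of 0.17, and from 9e-05 (without control replicate 1) to 0.10 with 1 array left out. CA12, the carbonic anhydrase that was measured, was at 0.17 (95% interval -0.0031 to 0.34), with arrays at 9.52, 9.56 and 9.38 in control and 9.71, 9.70 and 9.56 in the knockdown, which overlap; it was at 0.11 without control replicate 3.

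Of the remaining targets, TMEM45A, a transmembrane protein gene, had the lowest difference of all members and missed the threshold. It read 8.67, 8.73 and 8.95 in control and 8.30, 8.54 and 8.40 in the knockdown, a difference of -0.37 ± 0.09 (SE; limma, adjusted p = 0.0767). Its 20 neighbours had a median of -0.0018. WSB1, encoding a substrate receptor of a ubiquitin ligase, was at -0.21, with control arrays at 11.09, 11.11 and 11.11 and knockdown arrays at 10.81, 10.89 and 10.98. NDRG1, a stress-responsive gene linked to differentiation, was at -0.19, and at -0.12 without control replicate 3. RAB20, encoding a small GTPase, was at 0.17 with the groups apart, whereas ANKRD37 (-0.05) and PPFIA4 (0.05) overlapped.

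A wider list of HIF regulators and targets was counted beside these genes, and 76 of its 81 genes were measured. It was chosen with earlier results of these data known, so its shares here and in the next paragraph are descriptions only. None of 20 other regulators passed, and their differences lay between -0.16 and 0.14; CUL2, RBX1, ELOB and ELOC, which form the ligase with VHL, were at -0.11, -0.03, -0.01 and -0.14. Of 56 other targets, 4 fell and none rose (7.14% called, against 3.05% of all genes): LOX, a collagen crosslinking enzyme (-1.11 ± 0.09), ALDOC, a glycolytic aldolase (-1.11 ± 0.14), EDN1, the precursor of the vasoconstrictor endothelin (-0.66 ± 0.10), and SLC2A1, the glucose transporter GLUT1 (-0.48 ± 0.06; all SE; limma, adjusted p from 0.00329 to 0.0182). Among genes outside the lowest 33.3% of mean values, where all but 1 of the 56 lay, 3.97% were called. EDN1 read 12.00, 11.96 and 12.34 in control and 11.40, 11.51 and 11.42 in the knockdown. The 4 calls became 2 without knockdown replicate 1 and 1 without knockdown replicate 3. LOX and P4HA2 lie on the same chromosome, 33 tested genes apart in gene order, and the 20 neighbours of LOX had a median of -0.17.

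For 23 of the 56 other targets every knockdown array was below every control array, and for 6 every one was above (together 51.8%, against 27.0% of all genes). Among genes outside the lowest 33.3% of mean values the share was 33.0%. The targets named in the rest of this paragraph were picked after their values were seen, and none of them passed the test. VLDLR, MAFF and RORA were at -0.48, -0.36 and -0.27, and TGFA and LOXL2 at 0.27 and 0.22, all with groups that did not overlap. At their smallest with 1 array left out, these were -0.33, -0.27, -0.18, 0.21 and 0.19 in the same order. Control replicate 3 was the highest array for VLDLR, MAFF and RORA, at 9.28, 9.70 and 10.09. Others had small differences. VEGFA, the angiogenic growth factor gene, was at 0.05, the glycolytic genes LDHA, PGK1, ENO1 and ALDOA at -0.07, -0.06, 0.02 and 0.0025, and PDK1, which limits pyruvate entry into mitochondria, at -0.04, all with SE from 0.055 to 0.065. LDHA and PGK1 had groups that did not overlap. Of further glycolytic genes on the list, HK2 was at -0.23 (limma, adjusted p = 0.0835), HK1 at -0.16, PFKP at -0.10 and ENO2 at -0.10. These were lower, with groups that did not overlap. PFKL was at 0.07, higher without overlap, and TPI1 and GPI were at -0.0055 and 0.0088 with overlapping groups. The median of the 56 was -0.07, beside 0.03 for all genes and 0.02 for genes outside the lowest 33.3%. Of the 56, 69.6% were below 0, against 40.4% of all genes and 44.9% of those outside the lowest 33.3%.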

How the data were processed

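Total RNA of 3 control and 3 G9a knockdown samples was hybridised as biotin-labelled target to single-colour arrays, per the labels. The deposited values, 1 per probe set and array, were treated as log2 intensities because of their range (2.13 to 14.8). How the authors summarised and scaled the arrays, and the log base, is not given in the sources used here. Without detection calls, low values and background could not be distinguished. Array medians lay between 7.79 and 7.86. Depth has no meaning for arrays; their number limits the precision.

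Of 33297 probe sets, 19460 carry 1 gene symbol and 1754 several, in the platform annotation; 12083 are not listed there and stay unnamed here. Symbols were updated by Entrez number against RefSeq (GRCh38.p14; 19429 found), which left 18417 genes. Limma 3.58.1 in R 4.3.3 (lmFit, eBayes, no trend) was fitted over all genes, knockdown minus control, two-sided, with 4 residual degrees of freedom, and tested on simulated data. Gene order came from the same RefSeq table, and promoters from RefSeq.

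The members and gene lists were chosen with earlier results of these data known. Values are given for EHMT2, all measured members, and of the wider list those past the threshold. The ligase genes CUL2, RBX1, ELOB and ELOC, which did not pass, were added outside that plan. Other genes of the wider list are marked where they are given. The samples share only a replicate number, so whether same-numbered samples were paired is not known, and the main fit did not pair them. Deviations of same-numbered arrays correlated at -0.246, 0.122 and 0.0877, which does not settle it. Alternatives were quantile normalization, median centring, a filter on the lowest 33.3% of genes, the mean of a gene's probe sets, all probe sets tested, an intensity trend, array weights, each array left out, and a replicate block. The planned protein comparison of HIF1A, EPAS1 and the EGLN genes was not made, since no protein sequences were used here.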

Additional observations from a re-analysis of the deposited data

How the results depend on the processing

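Of the 14 alternatives, 5 leave every member's difference as it is by construction (the filter, the mean of probe sets, all probe sets tested, the trend and the block). Under the other 9, the members kept the sign of their difference, except PLOD1 (-0.0899 to 0.0249 with 1 array left out, above 0 without control replicate 2) and HILPDA (-0.00099 to 0.0887, below 0 without control replicate 3). The number of members called was 2, and 2 with quantile normalization, median centring or the mean of probe sets, 3 without the lowest 33.3% of genes (TMEM45A was added), 6 with an intensity trend, 10 with array weights and 0 with all probe sets tested. For all genes the counts were 562 against 972 without the lowest 33.3%, 1083 with a trend, 3328 with array weights (18.1% of genes) and 47 with all probe sets tested; for the wider HIF list they were 4 against 9 with a trend, 14 with array weights and 2 with all probe sets tested, where the EHMT2 difference of -0.55 had an adjusted p of 0.0957. With 1 array left out, 0 to 2 members, 1 to 5 genes of the wider list and 44 to 535 genes were called, the median of the members ran from -0.0899 to -0.0596 and EHMT2 from -0.66 to -0.49. The cause was not tested.

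With the replicate number as a block, no member was called (0, against 2, with a limma adjusted p of 0.0557 for VHL and 0.0693 for P4HA2). In that fit 217 genes were called, with the differences themselves the same. Whether the block reflects a pairing is not known, as the samples share only a number. Groups of 3 arrays are too small for an outlier test, so none was made.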
